A study of Homo sapiens with 12 samples.

Results

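KCNMA1 and KCNS3 are a pair of potassium channel genes read on Illumina arrays by 5 probes, 3 for KCNMA1 and 2 for KCNS3, of 47323 probes in all, and are 2 of the 20046 genes named there. The platform's annotation, with symbols updated through RefSeq, gives these 5 probes their names. The genes were picked because their signal was lower in cells given miR-135b on these same arrays, so their difference from control is described here and not tested. The arrays held RNA of LNCaP cells, an androgen-responsive line of human prostate carcinoma grown from a lymph node metastasis. Cells received either miR-135b, as an Ambion pre-miR, or the scrambled pre-miR negative control #1, transfected at 20 nM in both cases, and were incubated for 12, 24 or 36 h. Each of the 6 groups of treatment and time had 2 arrays, described in the design text as biological repeats, which limits the precision of every value. All 6 groups, controls included, are transfected cells of a single line. Any miR-135b that the cells make themselves was not analysed here.

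KCNMA1 encodes the pore-forming subunit of the BK channel, a potassium channel of large conductance that opens on depolarisation and on a rise of calcium inside the cell. Beta and gamma subunits bound to it shift the voltage at which it opens, and LNCaP cells are the line in which the gamma subunit LRRC26 was first recognised. KCNS3 encodes Kv9.3, a silent subunit of the voltage-gated family, which forms no working channel alone and changes the gating of other voltage-gated pore subunits when it assembles with them. Extra copies of KCNMA1 have been reported in part of advanced prostate tumours. A microRNA lowers its target messengers mostly through pairing of its seed, bases 2 to 8, with sites in their 3′ untranslated regions.

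The transfected agent is a precursor of miR-135b. Its mature strands are shown because the treated cells received this precursor and the controls a scrambled one, with the sequence of miR-135a beside them. The seed is in capitals, and the sequences and positions are those of RefSeq on GRCh38.p14.
hsa-miR-135b-5p: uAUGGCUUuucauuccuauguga
hsa-miR-135b-3p: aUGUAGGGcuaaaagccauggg
hsa-miR-135a-5p: uAUGGCUUuuuauuccuauguga
The first of these lies at chr1:205448361-205448383 on the minus strand, and the second at chr1:205448323-205448344 on the same strand. The strands named 5p of miR-135b and miR-135a differ at 1 of 23 positions and share the seed AUGGCUU, which no other mature microRNA of the 2370 in that table has. A messenger paired to it would carry AAGCCAT in DNA letters. The untranslated regions of the channel genes were not analysed here, so whether either messenger holds that match was not tested.

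Only 1 probe of each gene gave a signal above background in most arrays. The KCNMA1 probe ILMN_2297765 and the KCNS3 probe ILMN_2175112 were detected on 12 of 12 arrays, with detected meaning a detection p under 0.01, the p that the scanner software gives a signal against the array's negative controls. The second KCNMA1 probe, ILMN_1794282, was detected on 1 of 12 arrays, the miR-135b array of 36 h, repeat 2, and ILMN_1740508 was detected on 0. The second KCNS3 probe, ILMN_2175114, was detected on 0 as well. These 3 probes stayed at the level of the array medians, between 69.8 and 124 intensity units, so they give no level for either gene, and 2 of the 5 probes passed the filter of detection on at least 2 arrays. What follows on KCNMA1 and on KCNS3 therefore rests on 1 probe each. Between probes, intensities are not comparable, so neither gene can be called the more abundant one.

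**Figure D1:**
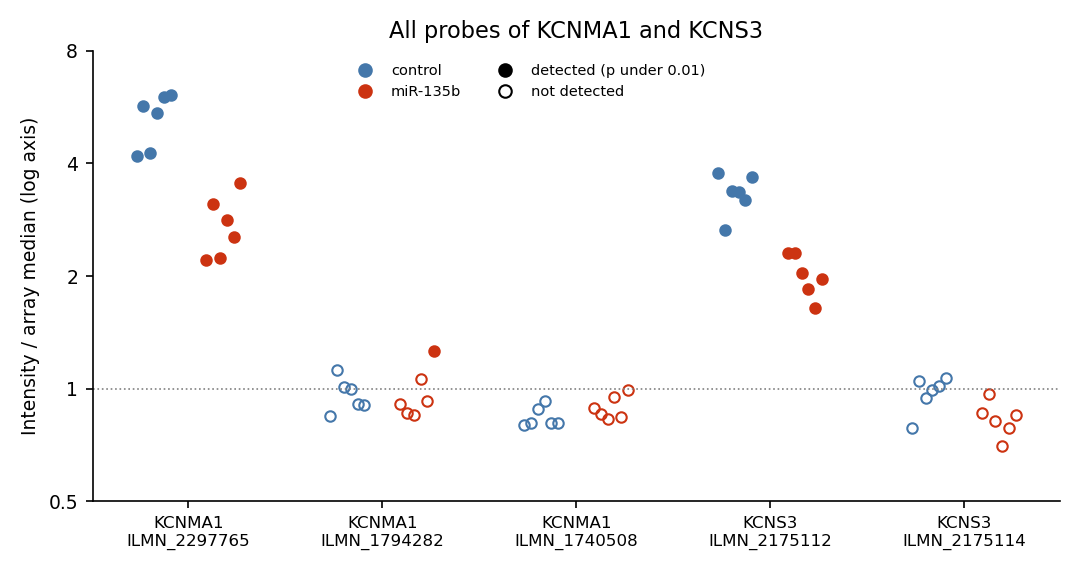
Intensity of each of the 5 probes divided by the median intensity of its array, on a log axis, for 6 control and 6 miR-135b arrays (1 point per array, filled where detected). The detected probe of KCNMA1 lies at 2.21 to 6.11 times the array median and that of KCNS3 at 1.64 to 3.77 times, while the other 3 probes lie near 1.

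In control cells the KCNMA1 probe read 478.6 and 581.9 intensity units at 12 h, 492 and 560.9 at 24 h and 667.1 and 613.4 at 36 h, repeat 1 first. In miR-135b cells it read 250.5 and 333.3 at 12 h, 249.9 and 280.2 at 24 h and 277.4 and 351.6 at 36 h. The highest miR-135b array thus stayed below the lowest control array, while array medians were 99 to 114 in miR-135b and 100 to 115 in control cells. On the log2 scale, after background correction and quantile normalization, the KCNMA1 difference, miR-135b minus control, was -1.24 ± 0.15 (SE of the fit) in the mean of the 3 times, which puts it at 42.3% of control. The difference was -1.10 ± 0.26 at 12 h, -1.34 ± 0.26 at 24 h and -1.29 ± 0.26 at 36 h, a fold of 2.14 to 2.53. In the means the value at 12 h was thus near those of the later times, but leaving out 1 array in turn moved it between -1.40 and -0.80. Taken between arrays of the same repeat number, the 6 differences lay between -1.49 and -1.06.

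In control cells the KCNS3 probe read 430.8 and 270.3 intensity units at 12 h, 389.7 and 345.5 at 24 h and 354.6 and 369 at 36 h. In miR-135b cells it read 261.7 and 246.2 at 12 h, 227.6 and 183.7 at 24 h and 178.6 and 193.7 at 36 h. The groups of 6 do not overlap here either, but the control array of 12 h, repeat 2, comes close to the treated arrays of that time. On the log2 scale the KCNS3 difference was -1.07 ± 0.13 in the mean of the 3 times, which puts it at 47.5% of control. By time the difference was -0.58 ± 0.22 at 12 h, -1.27 ± 0.22 at 24 h and -1.38 ± 0.22 at 36 h. At 12 h repeat 1 gave -0.85 and repeat 2 gave -0.30, and the difference was -0.26 without control repeat 1 and -0.89 without control repeat 2. The 4 differences at 24 and 36 h lay between -1.40 and -1.13. All 6 miR-135b arrays below all 6 control arrays was the state of 1.44% of the 19161 probes tested, and a lower value in the mean of 3 times passed limma's test for 1.7% of them. As the channel genes were selected on this contrast, nothing follows from their place among those probes.

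**Figure D2:**
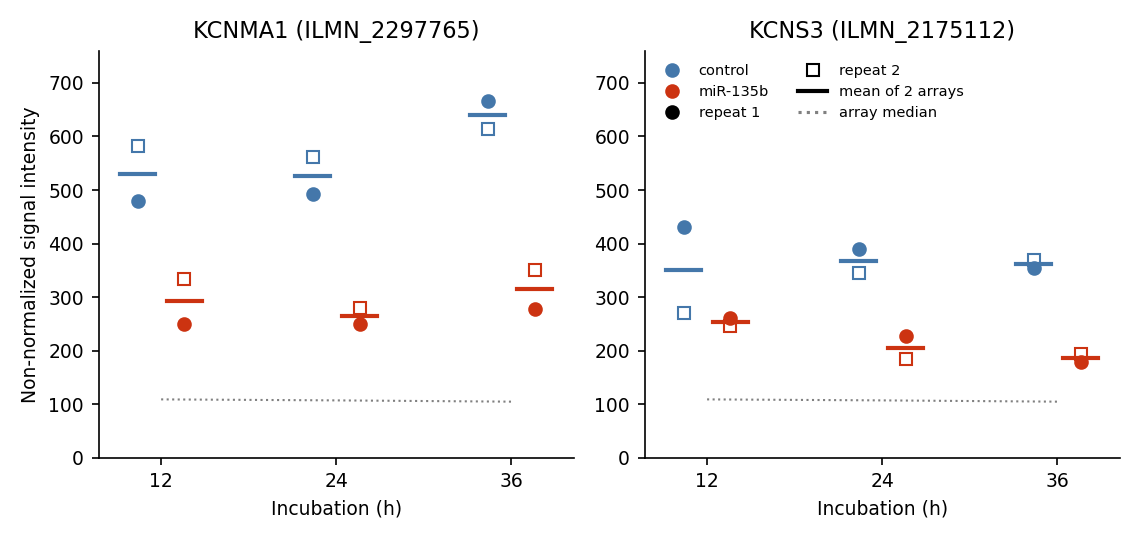
Non-normalized signal intensity of the detected probe of KCNMA1 (left) and of KCNS3 (right) by incubation time, 1 symbol per array, with horizontal bars at the mean of 2 arrays and a dotted line at the array median. The miR-135b arrays lie at 250.5 to 351.6 for KCNMA1 and 178.6 to 261.7 for KCNS3, below all control arrays of the same gene.

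Ordered by mean log2 signal, KCNMA1 was highest in control cells at 36 h (9.13 ± 0.01, SD, n = 2), followed by control cells at 24 h (8.90 ± 0.27) and 12 h (8.77 ± 0.37). The miR-135b groups came next, at 7.84 ± 0.30 for 36 h, 7.67 ± 0.42 for 12 h and 7.56 ± 0.25 for 24 h. Neighbours overlapped within the miR-135b groups and between control cells of 24 and 12 h. The step of 0.24 from control cells of 36 h to those of 24 h had no overlap of arrays but did not pass the test (95% interval of the difference -0.35 to 0.83, limma adjusted p = 1). KCNS3 was highest in control cells at 24 h (8.28 ± 0.04), with 36 h next at 8.15 ± 0.18 and 12 h after it, its arrays at 8.32 and 7.68, and neighbours overlapped. Its miR-135b groups followed in the order of time, at 7.42 ± 0.06 for 12 h, 7.01 ± 0.23 for 24 h and 6.77 ± 0.21 for 36 h. The arrays of 12 h did not overlap those of 24 h, whereas those of 24 and 36 h did. That change from 12 to 24 h, -0.41 (95% interval -0.90 to 0.08), did not pass the test (limma adjusted p = 0.697). With 2 arrays a group, a lack of overlap carries little weight.

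The time courses were not used to pick the genes and were tested with limma over all 19161 probes, with Benjamini-Hochberg adjustment. In control cells KCNMA1 differed by 0.36 ± 0.26 between 36 and 12 h (adjusted p = 0.658), with 0.10 without the control array of 12 h, repeat 1, and 0.62 without repeat 2. KCNS3 differed by 0.15 ± 0.22 (adjusted p = 0.866), with 0.46 and -0.17 without those same arrays. That contrast called 2 probes, 0.0104% of those tested, so neither channel gene moved with time in control cells past the threshold, and the 95% intervals were -0.23 to 0.95 and -0.35 to 0.64. In miR-135b cells KCNMA1 differed by 0.17 ± 0.26 between 36 and 12 h (adjusted p = 0.814), and 13 probes, or 0.0678%, passed. Trended and robust limma called 277 probes there and 18 in control cells, with neither channel gene among them. KCNS3 differed there by -0.66 ± 0.22 (95% interval -1.15 to -0.16, limma adjusted p = 0.212) and was lower at 36 h in 2 of 2 repeats. That is the widest gap between times within a treatment for either gene, and it did not pass. The steps between neighbouring times, 12 to 24 h and 24 to 36 h, called 0% of probes in either treatment.

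Whether the difference from control itself changed with time was tested next. For KCNMA1 the difference at 36 h minus that at 12 h was -0.19 ± 0.37 (limma adjusted p = 0.999, 95% interval -1.03 to 0.65). For KCNS3 it was -0.80 ± 0.31 (limma adjusted p = 0.999, 95% interval -1.50 to -0.11). The KCNS3 value was -1.12 without the control array of 12 h, repeat 1, and -0.49 without repeat 2. Pairing the repeats within a time gave KCNS3 a limma adjusted p of 0.345 and KCNMA1 one of 0.723. A moderated F test over the 3 times passed for neither gene (limma adjusted p = 1 for both, and 0.445 for KCNS3 with the pairing). KCNS3 had also been seen at 24 h before these tests, so its F test, which includes that time, is not independent of that. No probe on the arrays passed for the change between 12 and 36 h, or 0%, with 934 at an unadjusted p under 0.05. With the pairing 0 passed and 2237 reached that unadjusted level, and with trended and robust limma 0 passed and 879 did. The slower course of KCNS3 is thus a difference in the means that did not pass once all probes were counted.

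**Figure D3:**
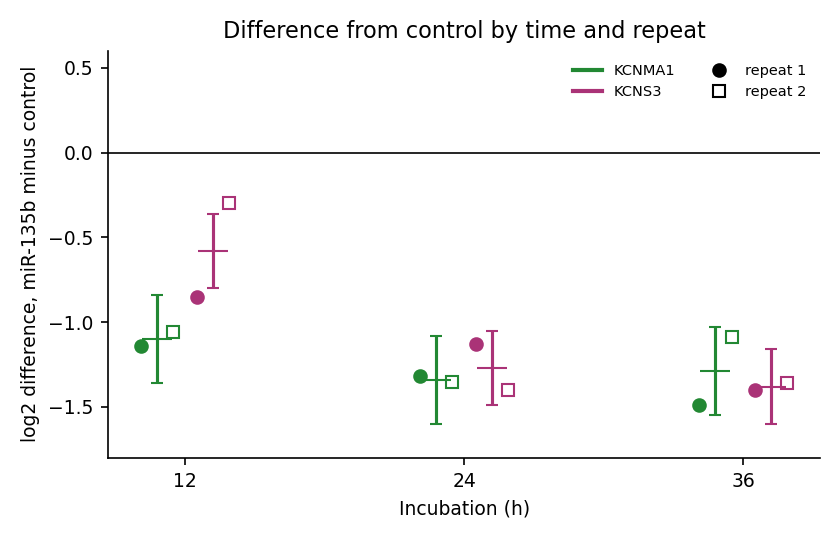
Log2 difference, miR-135b minus control, of KCNMA1 and KCNS3 at 12, 24 and 36 h. Horizontal bars with whiskers give the fitted difference ± SE, and symbols the difference between arrays of the same repeat number. KCNMA1 lies between -1.49 and -1.06 at every time, and KCNS3 goes from -0.58 at 12 h to -1.38 at 36 h.

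The other genes of the channel families were taken from lists of 101 genes, of which 94 have a probe named here and 24 were measured, that is, passed the detection filter. None of the 24 passed limma's test in the mean of the 3 times. Of the 11238 measured genes 3.59% passed, and 1.51% of the 11238 passed as higher. The 24 are too few to set against these shares. Their median log2 level was 5.97, against 8.46 for all measured genes, and 9 of them were detected on all 12 arrays, so weak signal limits the reading. At an unadjusted p under 0.05 there were 2 of the 24, or 8.33%, against 16.8% of all measured genes, and trended and robust limma also called 0, with 1 at that level. Their median difference was 0.09 and that of all genes 0.00, with 10 of 24 below 0. Most channel genes, 70 of the 94, lay at background, which says nothing about their change. At 12, 24 and 36 h taken singly 0 of the 24 passed as well, where 0%, 0.459% and 0.919% of all probes passed. At an unadjusted p under 0.05 there were 0, 2 and 3 of the 24, against 4.46%, 10.2% and 12.6% of all measured genes. With the repeats paired 0 of the 24 passed in the mean of the times, against 7.65% of all measured genes.

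Of the partners of the BK channel, LRRC26 was detected on all arrays, at 7520 to 11700 intensity units in miR-135b cells and 8590 to 12000 in control cells. The ranges overlap, and the difference was -0.10 ± 0.12 (limma adjusted p = 0.801), with -0.24 and -0.07 on its other 2 probes. KCNMB3, a beta subunit, read 209 to 289 in miR-135b cells and 211 to 379 in control cells, a difference of -0.15 ± 0.12 (adjusted p = 0.647, limma). The beta subunit KCNMB2 was detected on 4 arrays and read 0.19 ± 0.16. The smooth muscle beta subunit KCNMB1 was detected on 0 arrays and the neuronal one, KCNMB4, on 1. Thus the partners that could be read did not pass, and they are too few to set against the 3.59% of all measured genes. The pore subunit gene KCNMA1 was itself picked for its lower signal.

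Among the silent subunits related to KCNS3, 3 of 9 with a probe were measured. KCNG1 read 0.10 ± 0.11, KCNG4 -0.13 ± 0.13 (0.23 on its other probe) and KCNV2 0.11 ± 0.15, the last detected on 4 arrays. KCNS1 and KCNS2, the nearest relatives of KCNS3, were detected on 0 arrays. The pore subunit gene KCNB2, on the same list, was detected on 0 arrays too. Other voltage-gated pores gave 4 measured genes, among them the transient current channel KCND1 at 0.15 ± 0.12. The hERG-type channels KCNH6, at 0.13 ± 0.21, and KCNH2, at 0.10 ± 0.17, had 1 of 3 and 1 of 4 probes past the detection filter. At 36 h the KCNH6 repeats lay far apart, at 12700 and 5820 intensity units in miR-135b cells and 12500 and 5890 in control cells.

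Of the auxiliary subunits of voltage-gated channels 3 were measured, and the calcium-binding protein gene KCNIP3 read -0.22 ± 0.10 (limma adjusted p = 0.358), DPP10 0.12 ± 0.18 and KCNAB2 0.10 ± 0.18. Of the inward rectifiers and sulfonylurea receptors 4 were measured, with KCNJ4 at -0.20 ± 0.13, KCNJ10 at -0.14 ± 0.14 and ABCC8 at 0.16 ± 0.11. Of the leak channels with paired pore domains 7 were measured. KCNK1 read 0.12 ± 0.10, KCNK6 -0.20 ± 0.10 and KCNK3 -0.09 ± 0.11. The lowest value of the 24 was that of KCNK5, an acid-sensitive leak channel, at -0.65 ± 0.17 (limma adjusted p = 0.0862, and 0.0367 to 0.206 over its other settings), named after its value was seen. It was detected on 4 of 6 miR-135b and 6 of 6 control arrays, so part of its signal lies near background.

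**Figure D4:**
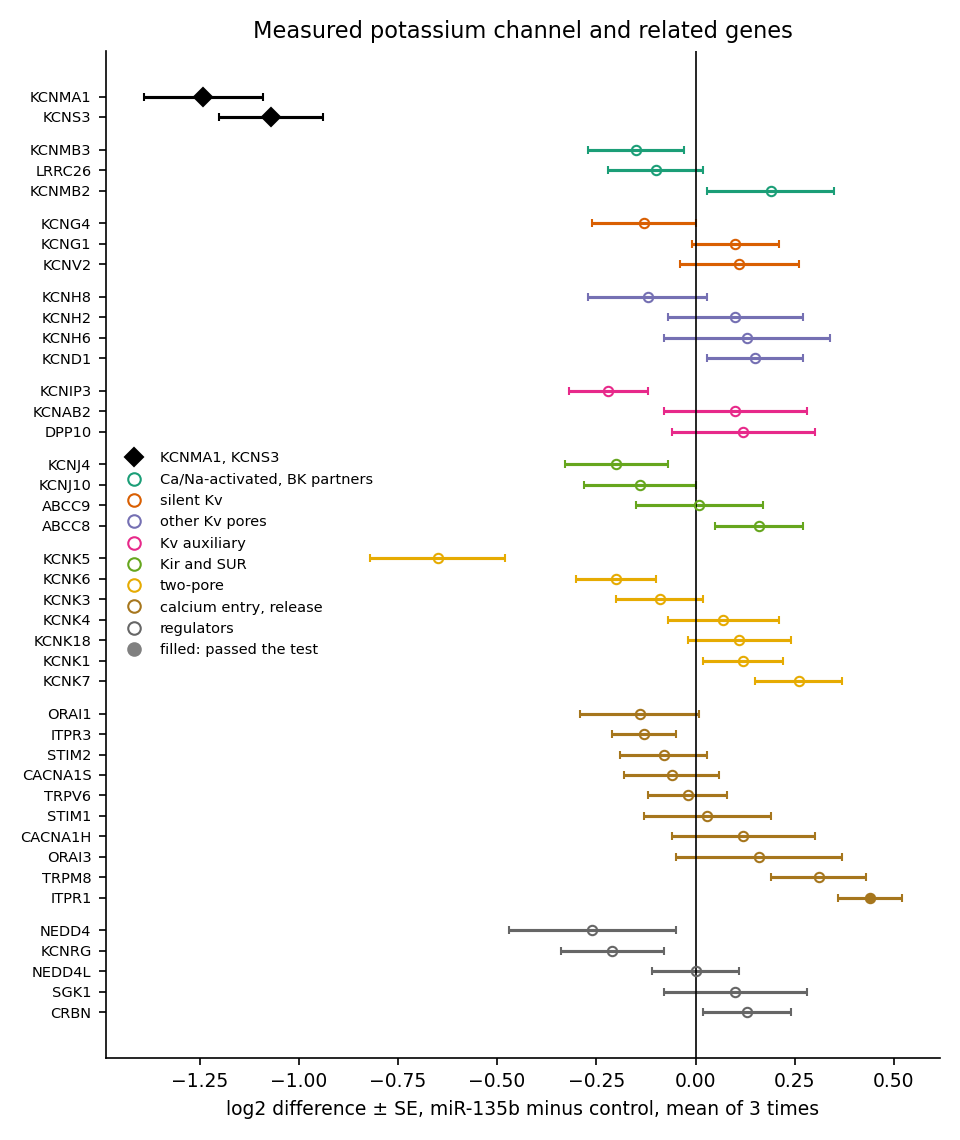
Log2 difference ± SE, miR-135b minus control in the mean of 3 times, for KCNMA1 and KCNS3 (diamonds) and for the measured genes of 8 lists (circles, filled where the test was passed). KCNMA1 and KCNS3, chosen on this difference, lie at -1.24 and -1.07, the other potassium channel genes between -0.65 and 0.26, and ITPR1 is the 1 filled circle.

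BK channels open on calcium, so genes that let calcium in or release it were read as well. Of 10 measured, 1 rose and 9 did not pass, where 3.59% of all measured genes passed. An unadjusted p under 0.05 was reached by 2 of the 10, near the 16.8% of all measured genes, and the median difference of the 10 was 0.01. ITPR1, a receptor that releases calcium from the endoplasmic reticulum, read 191 to 252 intensity units in miR-135b cells and 162 to 191 in control cells. The ranges meet in raw intensity and are apart on the normalized scale. It was 0.44 ± 0.08 higher on the log2 scale (limma adjusted p = 0.0247), higher in 6 of 6 pairs of arrays with the same number and time, and 12 of 22 other settings lost the call, with adjusted p from 0.0126 to 0.0813 over all of them. Its relative ITPR3 read -0.13 ± 0.08 and the calcium sensor gene STIM1 0.03 ± 0.16. Of 7 regulators of these channels 5 were measured and 0 passed, a count too small to set against the 3.59% of all genes. CRBN, cereblon, which binds the BK channel, read 0.13 ± 0.11, the ubiquitin ligase gene NEDD4L 0.00 ± 0.11 and the kinase gene SGK1 0.10 ± 0.18. At an unadjusted p under 0.05 there were 0 of the 5 by limma, where 16.8% of all measured genes reached it, and 0 with the trended and robust setting.

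To see which genes share the pattern, each gene was set against all 11237 others over the 12 arrays by Pearson's r of log2 values. The 5 nearest to KCNMA1 were ADAR (0.97), an RNA-editing enzyme gene, KCTD10 (0.96), the integrin gene ITGAV (0.96), STAU2 (0.96), which encodes an RNA-binding protein, and BTBD10 (0.95). The 5 nearest to KCNS3 were the glycolytic gene PGAM1 (0.97), HPS3 (0.96), SSR2 (0.95), the DNA repair gene APEX1 (0.95) and the integrin activator gene FERMT2 (0.95). The log2 differences of these 10 from control were -1.05 to -0.35, and the 12 arrays share the treatment contrast on which the channel genes were picked. KCNMA1 and KCNS3 correlated with each other at 0.78, which places KCNS3 at rank 219 for KCNMA1 and KCNMA1 at rank 342 for KCNS3. Over deviations from the group means their r was -0.46, whereas that of KCNMA1 with its 5 nearest genes was 0.69 to 0.95 and that of KCNS3 with its 5 nearest was 0.22 to 0.75. With 2 arrays a group, these deviations mirror each other, so the 12 points hold at most 6 independent ones. Arrays of the same repeat number and time also deviated together across the treatments (r = 0.44, 0.44 and 0.55 at 12, 24 and 36 h). On the log2 scale KCNMA1 read higher in repeat 2 than in repeat 1 in every group. A shared offset of the repeats was not taken out of these r.

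The promoters of both genes are shown as description only, since a lower signal in miR-135b cells is how the genes were picked. Any link between these windows and the signal was not tested. For each gene the outermost start in RefSeq (GRCh38.p14) was taken, with 250 bases before and 50 after it, and capitals mark the GC box, GGGCGG, searched on both strands, where neighbouring matches can overlap.
KCNMA1: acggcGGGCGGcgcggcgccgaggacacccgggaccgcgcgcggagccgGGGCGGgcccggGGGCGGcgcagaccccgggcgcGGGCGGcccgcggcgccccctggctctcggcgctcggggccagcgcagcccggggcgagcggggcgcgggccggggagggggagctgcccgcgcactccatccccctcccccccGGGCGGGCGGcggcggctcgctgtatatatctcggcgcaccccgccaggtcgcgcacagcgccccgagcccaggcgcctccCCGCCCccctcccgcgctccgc
KCNS3: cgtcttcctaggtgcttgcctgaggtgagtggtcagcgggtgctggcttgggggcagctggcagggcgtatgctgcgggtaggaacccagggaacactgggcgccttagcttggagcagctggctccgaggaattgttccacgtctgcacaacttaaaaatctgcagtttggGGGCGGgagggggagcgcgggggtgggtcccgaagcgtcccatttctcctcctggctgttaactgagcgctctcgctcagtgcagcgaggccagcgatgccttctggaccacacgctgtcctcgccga
The first lies at chr10:77637759-77638058 on the minus strand and the second at chr2:17877597-17877896 on the plus strand. The KCNMA1 window is 85.7% G and C, above 99.8% of promoters in the table, and holds 7 matches of the GC box. The KCNS3 window is 63% G and C, above 61.3% of promoters, and holds 1. A GC box is present in 45% of 35116 promoters of that length. Neither window holds TATAAA, found in 11.5%, or AGAACA, a core element of the androgen and glucocorticoid receptors, found in 14.8%, each on both strands. A second start of KCNS3 has 6 GC boxes and a second start of KCNMA1 has 0. Which start LNCaP cells use was not analysed here.

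Neighbouring genes on the chromosome were read as well. The next protein-coding genes of RefSeq on each side were chosen with the results known, and 5 of these 8 were measured. LRMDA beside KCNMA1, and MSGN1 and NT5C1B-RDH14 beside KCNS3, were not. Beside KCNMA1, ZNF503 read -0.25 ± 0.13, DLG5 -0.10 ± 0.11 and POLR3A -0.07 ± 0.10 (limma adjusted p = 0.415, 0.787 and 0.843). Beside KCNS3, GEN1 read -0.42 ± 0.12, detected on 6 arrays, and RDH14 0.18 ± 0.09 (limma adjusted p = 0.122 and 0.387). None of these 5 passed the test, a count too small to set against the 3.59% of all measured genes that passed. KCNMA1 and KCNS3 were chosen for a lower signal, so they cannot be set against their neighbours.

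The label of the cells was checked with markers. Of 8 luminal prostate genes 6 had a probe named here and all 6, among them KLK3, TMPRSS2 and FOLH1, were detected on 12 arrays. Basal markers KRT5 and KRT14, the neuroendocrine genes CHGA, CHGB, SYP and INSM1 and the leukocyte genes PTPRC and LYZ were detected on 0 arrays. In the same lists the neuronal gene ENO2 and the macrophage gene CD68 were detected on 12 arrays and CD14 on 2. BK channels are abundant in smooth muscle, whose markers summed to 1100 to 1430 intensity units in miR-135b and 938 to 1130 in control arrays. The sum overlaps between treatments. Of its 7 genes 3, MYH11, DES and CNN1, were detected on 0 arrays, ACTG2 on 1, and TAGLN, SYNM and ACTA2 on 12. TAGLN read 0.28 ± 0.11 and SYNM 0.04 ± 0.10 (limma adjusted p = 0.251 and 0.921). ACTA2 rose by 1.14 ± 0.11 (limma adjusted p = 0.000996), the opposite direction to KCNMA1. Its part in the KCNMA1 difference was not tested. In bulk RNA, fewer cells of a kind and less RNA per cell cannot be told apart. The number of probes detected on an array was 15967 to 17856, and arrays of a group correlated at r of 0.979 to 0.989 over the tested probes.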

How the data were processed

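Total RNA was labelled with the Illumina Total Prep kit, per the labels' protocols. The authors deposited a non-normalized table of signal intensity and detection p-values by probe and array, per the file headers. They also deposited processed log2 values, each array with a median of 6.736, r of at least 0.9998 and a slope of 0.962 to 1.03 against log2 intensity. These are quantile normalized and not centred per gene. In the mean of 3 times they gave nearly the same differences as the setting without background correction (KCNMA1 -1.00 and -0.99, KCNS3 -0.76 in both). A background step before the deposited intensities stays unknown. GenomeStudio 2010.2 and lumi 1.8.3 appear in the submitters' processing notes, and those sources name no genome build.

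Intensities were corrected with limma 3.58.1 (R 4.3.3) by normexp with controls inferred from detection p-values, offset 16, then quantile normalized and taken to log2. Of 47323 probes, 19161 passed at a detection p under 0.01 on 2 or more of 12 arrays. A model of 6 group means was fitted to these with lmFit and eBayes (6 residual degrees of freedom), two-sided, with Benjamini-Hochberg adjustment over all of them and a threshold of 0.05. A gene on a list was read from its measured probe of highest mean. A single gene name was given to 30113 probes, 8 had several and 17202 none here. On simulated data with 19161 probes, 94% of genes changed by 1 log2 unit and 99% of those changed by 2 were recovered for the mean of 3 times. Of the calls 7.66% were false. The simulated arrays were drawn independently, without any pairing of repeats. Smaller changes and the tests between times were not simulated, so how often those would be recovered is not known.

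Arrays of the same repeat number and time deviated together from their group means (r = 0.44, 0.44 and 0.55, above the limit of 0.1). The main fit leaves this pairing out, and a fit with the repeats paired within a time was run beside it. With the pairing 1245 of the 19161 probes passed for the mean of 3 times, against 560 in the main fit. The members, lists and tests were chosen with earlier results of these data known. Named genes are all probes of the pair, list genes that passed or else the brightest up to 3 per list, and the 5 genes most like each. Alternatives were other background, offset, scaling, filter, feature, pairing and eBayes choices and leaving out each array.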

Additional observations from a re-analysis of the deposited data

How the results depend on the processing

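The lower signal of KCNMA1 and KCNS3 in miR-135b cells kept its direction in the 22 other settings tried. The mean difference of KCNMA1 was -1.34 to -0.99, and that of KCNS3 -1.18 to -0.76. The KCNS3 value of -1.07 was -0.76 without background correction and -0.76 on the authors' processed values, and the cause was not tested. With a replicate block within each time, KCNMA1 read -1.24 ± 0.07 and KCNS3 -1.07 ± 0.09, and the pairing changed no call among the listed channel, calcium and regulator genes. Of the tests of KCNMA1 and KCNS3 between 12 and 36 h, 0 passed in any setting tried. Leaving out 1 array in turn moved the KCNMA1 change of effect from 12 to 36 h between -0.49 and 0.11, its change in miR-135b cells between -0.13 and 0.47 and in control cells between 0.10 and 0.62, and the KCNS3 change in control cells between -0.17 and 0.46. In the fits without 1 array a lone array is assumed to vary like the other groups. The count of other potassium channel genes past the threshold was 0, and 1 in 2 settings. These were KCNG3, detected on 1 array, with no detection filter over 94 genes, and KCNK5 without the control array of 24 h, repeat 2 (the fits without 1 array gave 0 to 1). ITPR1 did not pass with median scaling (adjusted p = 0.0628 by limma), with trended and robust limma (0.0502) or in 10 of 12 fits without 1 array. The slide as a block was not run, as the file headers name no slide, and the block within a time gives no contrast between times within a treatment. Signal over background limits the reading of 3 of the 5 probes and of 70 channel genes.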
